A study of Mus musculus with 8 samples.

Results

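The insulin-like growth factor (IGF) axis was examined in 8 clonal mouse liver cancer lines through 10 genes, taken by name from a list. They are the ligands Igf1 and Igf2, the receptors Igf1r and Igf2r, and the binding proteins Igfbp2, Igfbp3, Igfbp4, Igfbp5, Igfbp6 and Igfbp7. The list was drawn up because Igfbp3 and Igf1 were lower in lines made from intrahepatic cholangiocarcinoma (ICC), the liver cancer that resembles bile ducts, than in lines made from hepatocellular carcinoma (HCC), the one that resembles hepatocytes. Values of the ICC against HCC contrast are therefore given for the 10 genes as a description, with no test. All 10 were found among the 22180 genes with a probe set naming 1 gene only, and each had 1 such probe set.

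There were 4 ICC and 4 HCC lines, each a clone, grown untreated in DMEM with 10% fetal calf serum at 7.5% CO2 and hybridised to 1 Affymetrix array. All lines came from C57BL/6 mice whose tumours were driven by c-Myc and NrasG12V from the pCaMIN vector, which both types share, and the series title names transformed hepatocytes as their origin. ICC followed focal electroporation in vivo and HCC followed hydrodynamic tail-vein injection, and tumour type and delivery route cannot be told apart. The ICC lines ICC9 and ICC10 are labelled female and ICC2.7 and ICC2.9 male. Of the HCC lines, HCC2.1 and HCC2.4 are labelled female, HCC1 and HCC4 male. No label tells whether any of the lines came from a common mouse or tumour, so the p-values refer to the spread among these lines alone, which may be partly technical. Median log2 signal per array was 5.02 to 5.09, and 4 arrays per type limit the precision. The 8 columns of values span only 7 independent directions, and the missing one weighs most on ICC9 (0.782) and ICC10 (-0.538), so these arrays hold less independent information than their number. Of 8 hepatocyte markers 1, Hnf4a, lay above the median gene (5.66), with Alb at 4.12 to 4.64 over all 8 lines. Of 6 measured cholangiocyte markers 4 lay above it, among them Sox9 at 11.45 to 11.86, while Epcam and Cftr lay below it.

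IGF1 and IGF2 are secreted peptides that bind the receptor tyrosine kinase IGF1R, which drives growth and survival through insulin receptor substrates, PI3-kinase and AKT. The receptor encoded by Igf2r binds IGF2 and takes it to lysosomes, and it also sorts enzymes that carry mannose 6-phosphate. Binding proteins hold most IGF outside cells and decide how much of it reaches the receptor, and proteases set it free. The liver is the main source of circulating IGF1 after birth, under growth hormone, while Igf2 is an imprinted gene that is active in fetal liver and often reactivated in liver cancer.

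The sequence before the start site is shown for 4 genes that moved in pairs. Igfbp3 and Igf1 were both low in the ICC lines, and Igfbp5 and Igfbp6 were both high in the same pair of ICC lines. Each window is the 250 bases before a RefSeq start site on GRCm38.p6, 5′ to 3′ on the gene's strand, with capitals marking any match to a TATA box (TATAAA), GC box (GGGCGG), E-box (CACGTG, a site that MYC can bind), AP-1 motif (TGANTCA) or CCAAT box (CCAAT), searched on both strands.
Igfbp3 (chr11:7213924-7214173, minus strand): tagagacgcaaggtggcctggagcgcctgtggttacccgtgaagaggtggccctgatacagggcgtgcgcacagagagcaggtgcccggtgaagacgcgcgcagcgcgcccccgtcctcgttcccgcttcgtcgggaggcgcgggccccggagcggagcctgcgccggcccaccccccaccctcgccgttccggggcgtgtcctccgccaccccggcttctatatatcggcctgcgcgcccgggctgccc
Igf1 (chr10:87860861-87861110, plus strand): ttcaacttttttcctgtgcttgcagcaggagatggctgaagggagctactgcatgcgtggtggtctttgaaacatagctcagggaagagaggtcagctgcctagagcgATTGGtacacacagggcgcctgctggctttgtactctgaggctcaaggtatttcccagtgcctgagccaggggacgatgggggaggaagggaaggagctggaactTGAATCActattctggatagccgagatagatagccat
Igfbp5 (chr1:72874866-72875115, minus strand): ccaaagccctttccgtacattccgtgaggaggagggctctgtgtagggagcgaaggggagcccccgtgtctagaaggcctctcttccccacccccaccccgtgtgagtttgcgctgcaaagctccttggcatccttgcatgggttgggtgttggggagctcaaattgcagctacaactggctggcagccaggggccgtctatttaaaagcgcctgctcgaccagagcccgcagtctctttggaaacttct
Igfbp6 (chr15:102143936-102144185, plus strand): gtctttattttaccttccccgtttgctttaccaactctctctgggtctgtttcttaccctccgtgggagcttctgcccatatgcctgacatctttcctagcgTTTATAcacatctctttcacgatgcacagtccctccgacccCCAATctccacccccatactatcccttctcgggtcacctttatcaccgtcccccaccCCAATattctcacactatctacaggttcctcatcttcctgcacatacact

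The windows of the paired genes were unlike. The Igfbp3 window had 73.2% G and C and 32 CpG dinucleotides, whereas that of Igf1 had 52.8% and 5, near the medians over 32851 windows of the same length (52.4% and 6). The Igfbp5 window (58.8%, 10 CpG) and the Igfbp6 window (49.6%, 7 CpG) also differed from each other. None of the 5 motifs had an exact match in the Igfbp3 or Igfbp5 window. Variant letters, such as tatatat in the Igfbp3 window, were not searched for. The Igf1 window held an AP-1 match (TGAATCA) that starts 37 bases before the start site and a CCAAT match at 142. The N of the AP-1 motif stood for any base. The Igfbp6 window held CCAAT matches at 50 and 107 and a TATA match on the other strand (TTTATA) at 148. Over all 14 windows of the 10 genes, a GC box was present in 6 (32.7% of all windows), a CCAAT box in 3 (33.8%), a TATA box in 2 (12.4%), an E-box in 2 (6.02%) and an AP-1 motif in 2 (6.75%). The E-boxes lay in Igf2r, at 7 and 48 bases before the start site, and in Igfbp2. These are matches of letters only.

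**Figure D1:**
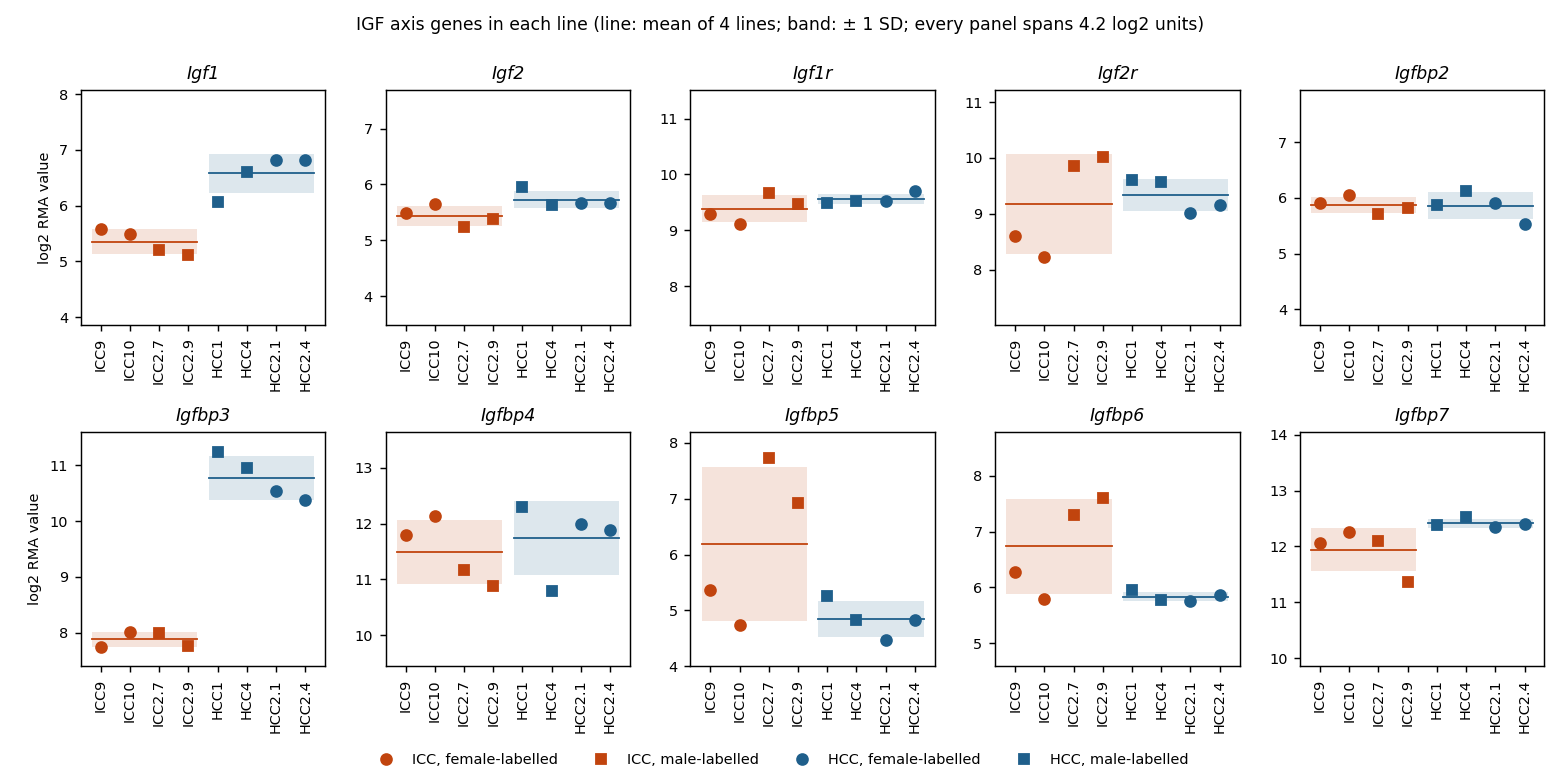
Log2 RMA value (y axis) of each of the 10 IGF axis genes in each line (x axis), with circles for female-labelled and squares for male-labelled lines, red for ICC and blue for HCC; horizontal lines are means of 4 lines, bands are ± 1 SD, and every panel spans the same number of log2 units. Igfbp3 lies at 7.75 to 8.01 in ICC and 10.37 to 11.24 in HCC lines, and Igfbp5 and Igfbp6 are highest in ICC2.7 and ICC2.9.

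Among the ligands, Igf1 was lower in every ICC line than in any HCC line. Its log2 value was 5.58 in ICC9, 5.50 in ICC10, 5.20 in ICC2.7 and 5.12 in ICC2.9. In HCC lines it was 6.07 in HCC1, 6.60 in HCC4 and 6.82 in both HCC2.1 and HCC2.4. The groups did not overlap, with a gap of 0.49 between ICC9 and HCC1, and the means were 5.35 ± 0.22 and 6.58 ± 0.35 (SD, n = 4 each), 2.34-fold higher in HCC. The difference was much the same in female-labelled (-1.28) and male-labelled lines (-1.17 to 2 decimals, from means of 5.16 and 6.33). All 4 ICC values lay below the median gene (5.66), where signal over background is unknown. In bulk RNA, fewer cells making a transcript and less transcript per cell cannot be told apart. Igf2, the fetal ligand, stood near the median gene (5.66), at 5.44 ± 0.18 in ICC and 5.73 ± 0.15 in HCC lines. It measured 5.48, 5.65, 5.23 and 5.39 in ICC9, ICC10, ICC2.7 and ICC2.9, and 5.95, 5.63, 5.67 and 5.66 in HCC1, HCC4, HCC2.1 and HCC2.4. Only ICC10 and HCC4 crossed, by 0.02, and HCC1 stood above the other HCC lines. The series holds no normal liver, so whether Igf2 was raised in either type cannot be told.

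Both receptor genes read lowest in ICC9 and ICC10, the lines on which the missing direction weighs most, and both overlapped between the tumour types. Igf1r, the signalling receptor, measured 9.29 in ICC9 and 9.12 in ICC10, against 9.67 in ICC2.7 and 9.47 in ICC2.9. The HCC lines lay at 9.49 (HCC1), 9.53 (HCC4), 9.53 (HCC2.1) and 9.70 (HCC2.4). The 2 lowest values of Igf1r were thus those of the female-labelled ICC lines, and the other 6 lines lay within 9.47 to 9.70. The step from 9.29 to 9.47 was no larger than the 0.20 between ICC2.7 and ICC2.9. Igf2r, which clears IGF2, spread further: 8.60 in ICC9, 8.22 in ICC10, 9.85 in ICC2.7 and 10.01 in ICC2.9. In HCC lines it was 9.60 in HCC1, 9.57 in HCC4, 9.02 in HCC2.1 and 9.16 in HCC2.4. Igf2r was lower in each female-labelled line than in any male-labelled line, and the types overlapped fully (9.17 ± 0.89 in ICC and 9.34 ± 0.29 in HCC, SD, n = 4 each). The mean difference of -0.17 changed sign without ICC9 (0.02) or ICC10 (0.15).

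Igfbp3, the main carrier of IGF in serum and a protein with actions of its own on growth, differed most between the types. It measured 7.75 in ICC9, 8.01 in ICC10, 7.99 in ICC2.7 and 7.77 in ICC2.9. In HCC lines it reached 11.24 in HCC1, 10.95 in HCC4, 10.54 in HCC2.1 and 10.37 in HCC2.4. The ICC lines lay within 0.26 of each other, the gap to the lowest HCC line was 2.36, and the mean was 7.44-fold higher in HCC. The order within HCC ran from the male-labelled pair (mean 11.09) to the female-labelled pair (10.46), a step of 0.64 against 0.29 and 0.17 inside the pairs, while both ICC pairs averaged 7.88. Igfbp1, which lies next to Igfbp3 on chromosome 11, did not show this pattern: its probe set read 4.99 to 5.11 in ICC and 4.78 to 5.07 in HCC lines.

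Igfbp5 and Igfbp6 were high in the male-labelled ICC lines. Igfbp5, which binds extracellular matrix, measured 5.36 in ICC9, 4.73 in ICC10, 7.73 in ICC2.7 and 6.92 in ICC2.9. The HCC lines lay at 5.25 (HCC1), 4.82 (HCC4), 4.46 (HCC2.1) and 4.82 (HCC2.4), so ICC10 lay among them and ICC9 slightly above them all. Within ICC the male-labelled pair exceeded the female-labelled pair 4.86-fold. Igfbp6, which prefers IGF2 over IGF1, followed the same lines: 6.28 in ICC9, 5.79 in ICC10, 7.29 in ICC2.7 and 7.61 in ICC2.9, against 5.95, 5.78, 5.76 and 5.86 in HCC1, HCC4, HCC2.1 and HCC2.4. The ICC male-labelled pair was 2.67-fold above the female-labelled pair. Over all lines Igfbp5 was higher in ICC by 1.35 and Igfbp6 by 0.91, but the difference came to 0.41 (from 5.04 and 4.64) and 0.23 (from 6.04 and 5.81) in female-labelled lines and 2.29 and 1.58 in male-labelled lines. Without ICC2.7 the Igfbp5 difference fell to 0.83. Igfbp2, the neighbour of Igfbp5 on chromosome 1, stayed between 5.53 and 6.13 in all 8 lines and its type means differed by 0.01.

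Igfbp4 and Igfbp7 gave 2 further patterns. Igfbp4, an inhibitory binding protein cleaved by PAPP-A, measured 11.80 in ICC9, 12.14 in ICC10, 11.17 in ICC2.7 and 10.88 in ICC2.9. It was 12.29 in HCC1, 10.79 in HCC4, 11.99 in HCC2.1 and 11.89 in HCC2.4. The male-labelled HCC lines were its highest and lowest lines. Igfbp7, a secreted relative that binds IGF weakly, was 12.06, 12.25, 12.09 and 11.37 in ICC9, ICC10, ICC2.7 and ICC2.9. The HCC lines lay close together at 12.34 to 12.53. The types did not overlap, but the gap was only 0.09, and the mean difference of -0.47 became -0.28 without ICC2.9.

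Of the 10 genes, 7 had a lower and 3 a higher mean in ICC lines, where 49.1% of all genes had a lower mean (median difference -0.21, against 0.00 over all genes). Without overlap, 3 were lower in ICC, namely Igfbp3, Igf1 and Igfbp7, as were 4.44% of all genes, and 8.63% of all genes separated the types in either direction. The members were chosen on this contrast, so nothing is read from these counts.

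**Figure D2:**
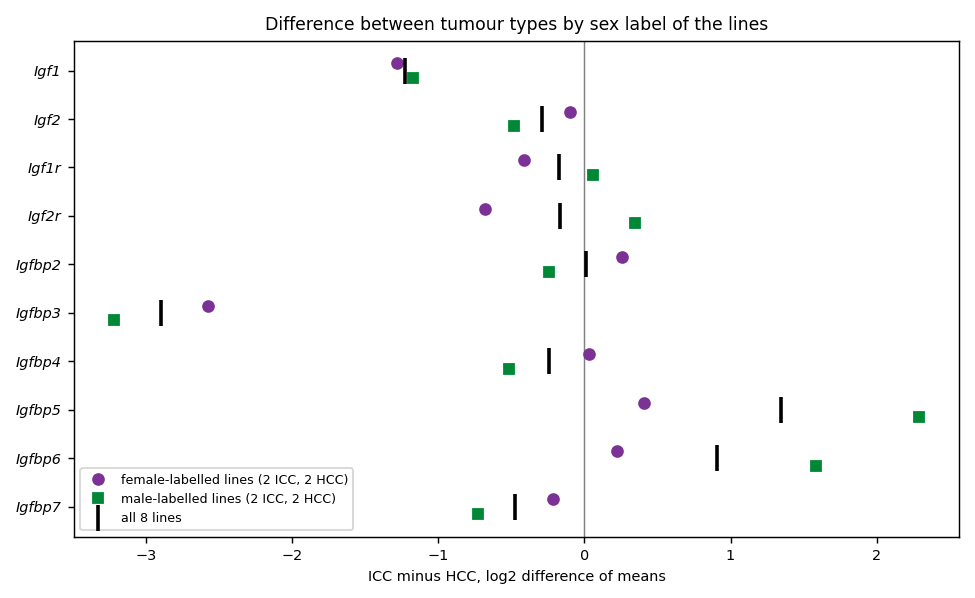
Difference of mean log2 value between ICC and HCC lines (x axis) for each IGF axis gene (y axis), in the 2 ICC and 2 HCC female-labelled lines (purple circles), in the male-labelled lines (green squares) and in all 8 lines (black bars). Igf1 and Igfbp3 lie far below 0 in both, Igfbp5 (0.41 and 2.29) and Igfbp6 lie further above 0 in male-labelled lines, and Igf2r has opposite signs (-0.68 and 0.34).

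The sex label of the lines gave a comparison that the choice of genes had not used. With tumour type in the model, Igf2r was lower in female-labelled lines by 1.01 log2 units (SE 0.21, limma adjusted p = 0.046), in 4 of 4 against 4 lines without overlap, and was the 1 member called. Of all genes 2.94% were called. The Igf2r difference was -1.52 within ICC lines and -0.495 within HCC lines, so the ICC lines carried most of it. The call was lost when the missing direction was added to the model (adjusted p = 0.0982), when each pair sharing type and sex was a random block (0.0708), and without any single line but HCC4 (0.0539 to 0.171). Igfbp5 was lower in female-labelled lines by 1.34 (SE 0.40, adjusted p = 0.132), Igfbp6 by 0.73 (SE 0.27, 0.215) and Igf1 higher by 0.43 (SE 0.12, 0.106), none past the threshold. Igf1 was called without HCC4 (0.53, adjusted p = 0.0378). Igfbp4 was higher by 0.67 (SE 0.30, adjusted p = 0.298) and was called without HCC1 (1.03, adjusted p = 0.00998), the line that read 12.29. An unadjusted p under 0.05 was reached by 4 of the 10 and by 17.5% of all genes.

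Whether the difference between the types itself differed between female- and male-labelled lines was asked with an interaction term. That term also separates lines whose names begin with a 2 after the tumour type from the others, and the labels do not say what the name stands for, so sex label within type and name series cannot be told apart. Limma called 0 of the 10 members and 0% of all genes, while an unadjusted p under 0.05 was found for 5 of the 10 and for 20.1% of genes. The interaction was -1.36 for Igfbp6 (SE 0.26, adjusted p = 0.113), -1.89 for Igfbp5 (SE 0.45, adjusted p = 0.119) and -1.02 for Igf2r (from -0.68 in female- and 0.34 in male-labelled lines, adjusted p = 0.113). Igfbp3 had 0.64 (SE 0.22, adjusted p = 0.177) and Igf1r -0.47 (SE 0.18, adjusted p = 0.202). Igfbp6 was called when the missing direction was modelled (-1.55, adjusted p = 0.042) and without ICC9 (adjusted p = 0.0465).

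Some genes that mark fibroblasts and stellate cells were high in ICC2.7 and ICC2.9, as Igfbp5 and Igfbp6 were, and others were not. The mean of the 10 listed markers, all measured, was 6.33 in ICC2.7 and 6.11 in ICC2.9, 5.62 in ICC9, 5.46 in ICC10 and 5.36 to 5.68 in the HCC lines. Type I collagen, Col1a1, measured 9.82 and 8.19 in ICC2.7 and ICC2.9 and 6.41 to 7.18 in the other 6 lines, and the PDGF receptor gene Pdgfrb 10.55 and 9.89 against 6.66 to 8.41. Col1a2 read 6.69 and 6.77 there, but 6.78 in HCC4, and Pdgfra read 5.32 and 5.64 within a range of 5.32 to 5.64 over all lines. Des, an intermediate filament gene, had the opposite direction, with 5.17 and 4.97 in ICC2.7 and ICC2.9 and 5.37 to 6.86 in HCC lines. Limma called 1 of the 10 between types, against 0.261% of all genes. This was Col3a1, at 6.67 to 7.34 in the 4 ICC lines and 4.87 to 5.63 in the HCC lines. Of the 10 markers 5 lay above the median gene, while Dcn (3.11 to 3.39), Lum (3.03 to 3.82) and Lrat (4.42 to 4.65) were low in every line, ICC2.7 and ICC2.9 included. The part of these markers in the Igfbp5 and Igfbp6 values was not tested. The mean of the 8 hepatocyte markers was below 5.04 in every ICC line and 5.04 to 5.17 in HCC lines, but without Hnf4a, which read 7.26 in HCC2.1 and 7.06 in HCC2.4, the mean of the other 7 overlapped (4.85 to 4.94 in ICC and 4.87 to 5.06 in HCC). Leukocyte (5.23 to 6.19) and endothelial marker means (4.71 to 4.91) overlapped between the types. So did the mean of the 6 measured cholangiocyte markers, at 6.71 to 7.33 in ICC and 6.39 to 7.19 in HCC lines.

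**Figure D3:**
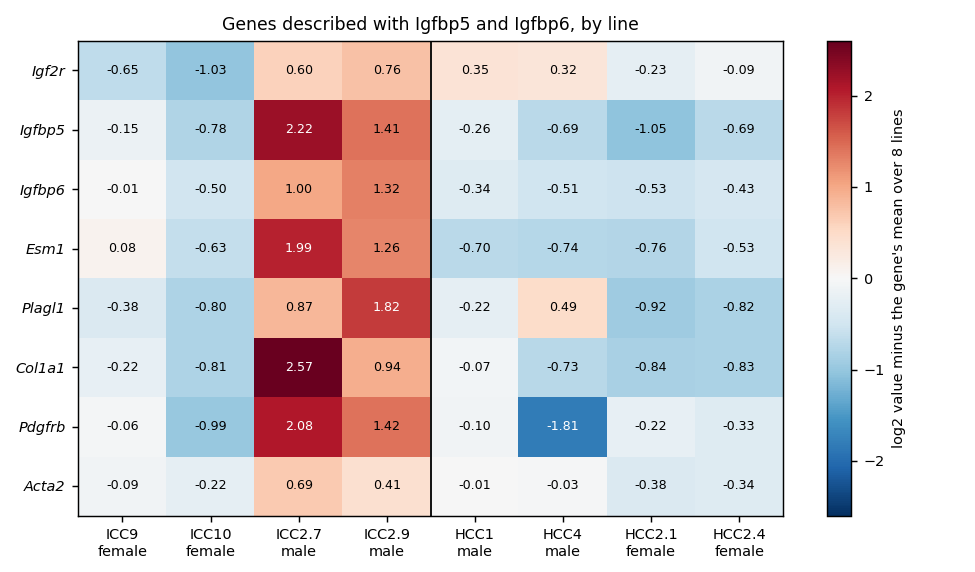
Log2 value minus the gene's own mean over 8 lines (colour scale and printed numbers) for Igf2r, Igfbp5, Igfbp6 and 5 other genes, of which Esm1 and Plagl1 are listed partners, and all but Esm1 were chosen after their values were seen (rows), in each line with its sex label (columns; ICC left of the black rule). Igfbp5, Igfbp6, Esm1, Col1a1, Pdgfrb and Acta2 are highest in ICC2.7 and ICC2.9, and Plagl1 is also above its mean in HCC4.

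The genes most like Igfbp3 and Igf1 were found by the mean absolute difference of centred log2 values over the 8 lines. Closest to Igfbp3 was Olr1, a scavenger receptor gene, at 0.26. Next came the water channel Aqp5 (0.52), the tight junction gene Ocln (0.60), the secreted lipase inhibitor Angptl4 (0.67) and Epb41l4a (0.67). Olr1 lay at 5.73 to 6.16 in ICC and 8.37 to 9.01 in HCC lines, with HCC1 highest, as for Igfbp3. Closest to Igf1 were the homeobox factor gene Nkx6-1 (0.075), the dipeptidase Cndp2 (0.0994), the T-box factor Tbx3 (0.142), the mTOR complex partner Prr5l (0.159) and the adaptor Sorbs2 (0.162). Nkx6-1 read 6.23 to 6.67 in ICC lines, 7.06 in HCC1, 7.53 in HCC4, 7.94 in HCC2.1 and 7.87 in HCC2.4, so that HCC1 was the lowest HCC line for both genes. These genes were picked for their likeness, and no test was made.

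Of 68 genes that act with the IGF axis, listed by role, 62 were measured, and limma called 0 of them between ICC and HCC lines, against 0.261% of all genes. An unadjusted p under 0.05 was reached by 15 (24.2%), 10 higher and 5 lower in ICC, against 14.1% of all genes, and the median difference was 0.04 against 0.00. With sex in the model 2 were called, Ccn2 (-1.61, from means of 9.10 and 10.71, adjusted p = 0.00944) and Phlpp1 (0.55, adjusted p = 0.0414), where 1.93% of all genes were called. With an estimated correlation between lines that share type and sex, the adjusted p was 0.269 for Ccn2 and 0.529 for Phlpp1.

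In the growth hormone class Ghr, the growth hormone receptor, lay between 7.27 and 7.65 in ICC and between 7.88 and 8.33 in HCC, without overlap (limma adjusted p = 0.0846). Stat5b, which carries the growth hormone signal to target genes such as Igf1, was 6.63 ± 0.40 and 7.16 ± 0.16 (SD, n = 4 each, adjusted p = 0.267). In this class 5 of 6 genes had a lower mean in ICC, as had 49.1% of all genes, and 0 were called. Jak2, Stat5a and Cish differed by -0.24, -0.095 and -0.10 with overlap, and Socs2 went the other way (0.47). Among 13 receptor adaptors and feedback genes 10 had a higher mean in ICC, as had 11137 of all 22180 genes, and 0 were called. The median difference of the 13 was 0.10. Grb10, which restrains IGF1 and insulin receptors, was 5.49 ± 0.32 in ICC and 4.77 ± 0.17 in HCC (SD, n = 4 each, limma adjusted p = 0.105), and the docking protein gene Dok1 differed by 0.38 (SE 0.13, adjusted p = 0.23). In the PI3-kinase, AKT and FOXO class, Phlpp1, a phosphatase of AKT, differed by 0.55 (SE 0.17, adjusted p = 0.205) and Foxo1, a transcription factor held back by AKT, by -0.31 (SE 0.12, adjusted p = 0.311). With its 2 probe sets averaged, Foxo1 differed by -0.19 (limma adjusted p = 0.483). Akt1 and Pdpk1 differed by 0.11 and 0.01.

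The CCN proteins share a domain with the binding proteins. Ccn2, a matrix-associated growth regulator with the smallest p of the 62 genes, measured 8.27 to 9.62 in ICC and 10.15 to 11.07 in HCC lines without overlap (adjusted p = 0.0806). With the 2 probe sets of Ccn2 averaged, its difference was -1.21 (limma adjusted p = 0.105), against -1.615 with the brighter one. Ccn3 had the opposite direction (6.85 ± 0.49 and 5.82 ± 0.61, SD, n = 4 each, adjusted p = 0.22). Esm1, a secreted proteoglycan, followed Igfbp5: 6.95 in ICC2.7, 6.22 in ICC2.9, 5.04 in ICC9 and at most 4.43 in ICC10 and the HCC lines (adjusted p = 0.267). Of the protease class, Stc2, an inhibitor of PAPP-A, differed by 0.54 (adjusted p = 0.244), and Adam12, a protease that can cleave binding proteins, by -0.49 (adjusted p = 0.352). Pappa, the PAPP-A gene, lay within 5.38 to 6.15 in all lines.

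**Figure D4:**
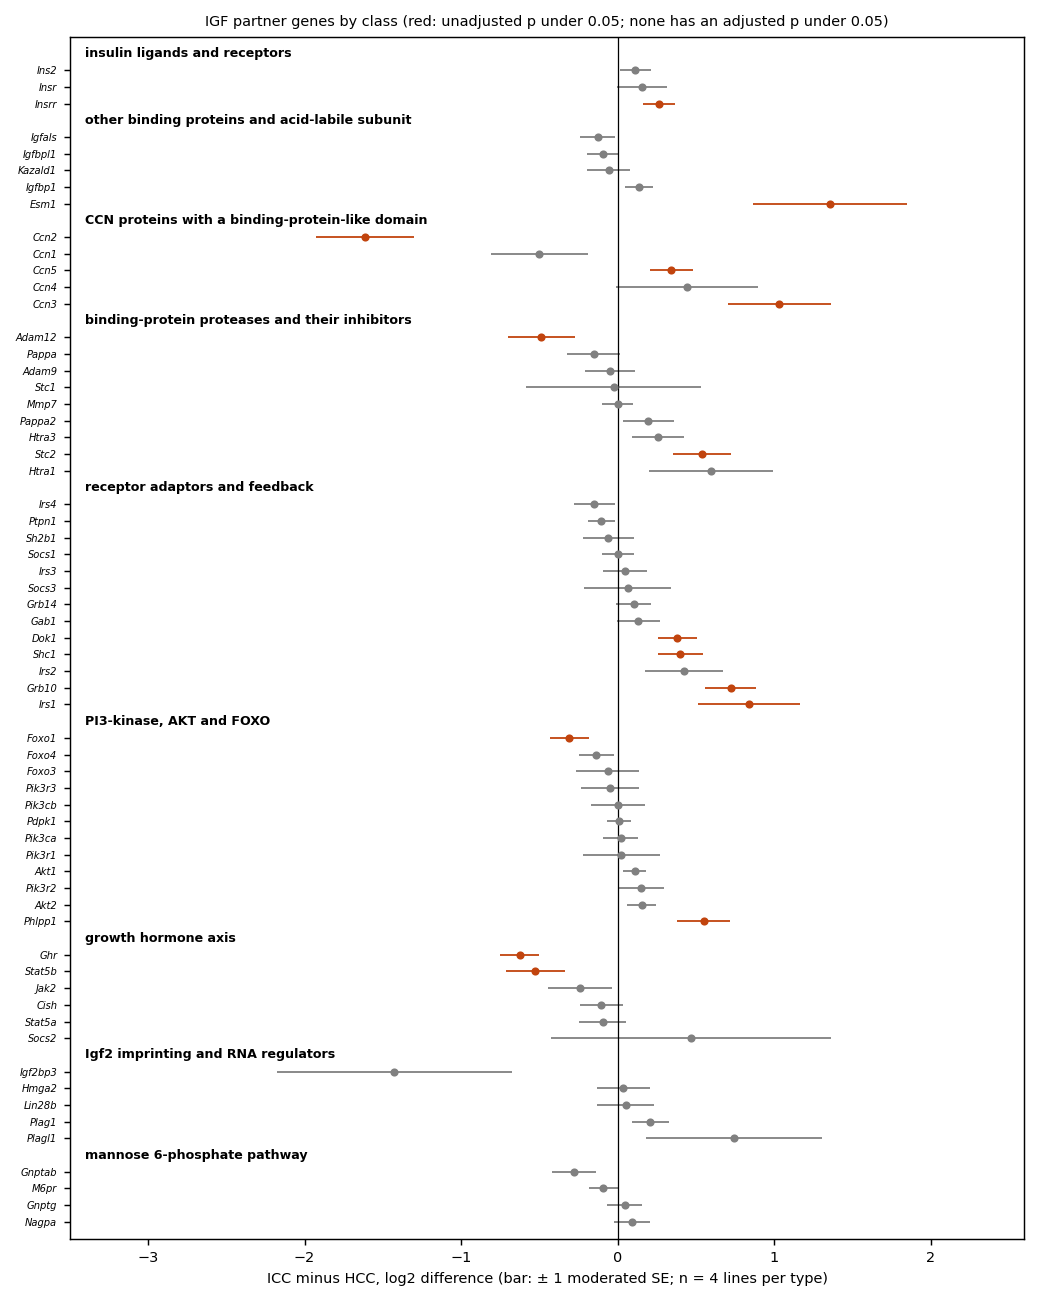
ICC minus HCC log2 difference (x axis, bars ± 1 moderated SE, n = 4 lines per type) of the 62 measured IGF partner genes (y axis) by class, in red where the unadjusted p is under 0.05 and grey otherwise. Ccn2, Ghr and Grb10 have the smallest p, and 0 of the 62 have an adjusted p under 0.05.

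The remaining classes showed smaller differences or differences inside one type. The insulin receptor relative Insrr differed by 0.27 (adjusted p = 0.294) and Ins2 by 0.11 (adjusted p = 0.656), both below the median gene. Of the mannose 6-phosphate genes, Gnptab, a subunit gene of the tagging enzyme, differed by -0.28 (adjusted p = 0.408) and M6pr, the second mannose 6-phosphate receptor, by -0.09 (adjusted p = 0.70). Plag1, an activator of Igf2, differed by 0.21 (adjusted p = 0.466). Igf2bp3, which binds Igf2 mRNA, was 7.52 in ICC9 and 6.26 in ICC10 but 9.61 to 10.08 in the other 6 lines. The same female-labelled ICC lines were thus lowest in Igf2bp3, Igf2r and, by a small step, Igf1r. The Igf2bp3 interaction of -3.38 (from -3.12 in female- and 0.27 in male-labelled lines) had a limma adjusted p of 0.113.

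Between female- and male-labelled lines 3 of the 62 partner genes were called (2.94% of all genes were), a count added after the data were seen. Socs2, a brake on growth hormone signalling, measured 9.94 to 10.37 in the female-labelled lines, 8.81 in ICC2.7, 8.01 in ICC2.9, 8.09 in HCC1 and 6.42 in HCC4 (difference 2.39, adjusted p = 0.0257). Plagl1, an imprinted zinc finger gene, was lower in female-labelled lines by 1.47 (adjusted p = 0.0372) and Ccn4 by 1.28 (adjusted p = 0.0069). Plagl1 was lost without ICC9, ICC10, ICC2.7, ICC2.9, HCC4, HCC2.1 or HCC2.4, and Socs2 without ICC9, ICC2.9, HCC2.1 or HCC2.4. Both were lost with the missing direction (0.0778 and 0.0546) or a random block (0.0744 and 0.0541), and Ccn4 was not. Plagl1 was also lost when the probe sets of each gene were averaged (-1.04, adjusted p = 0.066). Socs2 was smaller with that setting but kept (1.845, limma adjusted p = 0.0271).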

How the data were processed

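RNA of 8 lines was hybridised to Affymetrix arrays after WT PLUS labelling of 100 ng total RNA, per the labels' protocols. The deposited values are log2 values made by the authors with RMA in oligo, per the submitters' processing notes; for versions and genome build, not given in the sources used here. Of 39993 probe sets, 23521 name 1 gene, and the brightest of these on average stood for each gene. Differences were fitted over all 22180 genes with limma 3.58.1 in R 4.3.3 (lmFit, eBayes, two-sided, Benjamini-Hochberg, adjusted p under 0.05). The models held type alone (6 residual degrees of freedom), type and sex (5), or both with their interaction (4). The fits were tested on simulated data with independent noise for each line. That noise held neither the missing direction nor a correlation between lines, and recovery was required for type and sex only. SE is moderated, and SD is over lines. Gene names come from the platform annotation, and start sites and neighbours from RefSeq GRCm38.p6, where all 10 members matched. Members, lists and rules were chosen with earlier results of these data known. Named are all members, called partner genes or the 2 with the smallest p per class, and the 5 genes most like Igfbp3 and Igf1; Col1a1, Pdgfrb, Acta2, Akt1, Pdpk1, Pappa and partners called by sex were chosen after their values were seen. Scanner files were not used here, so background was not assessed. Tables and figures used pandas 2.3.3 and matplotlib 3.10.9.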

Additional observations from a re-analysis of the deposited data

Results flagged for a closer look

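Single lines stood apart from the other 3 of their type in 5 of 62 groups checked, and chance gives about 1 in 20. Igf2 in HCC1 read 5.95, above 5.63 to 5.67 in the other HCC lines. Igfbp1 in ICC10 read 4.99, below 5.09 to 5.11 in the other ICC lines, a range that is narrow. HCC4 was low for Dok1 (7.70, others 7.89 to 7.90) and for Foxo1 (8.39, others 8.54 to 8.55). M6pr in ICC2.9 read 10.38, with the other ICC lines at 10.56 to 10.57. For Igf2r the ICC minus HCC difference had opposite directions in female- and male-labelled lines. Both female-labelled ICC lines lay below both female-labelled HCC lines, and both male-labelled ICC lines above both male-labelled HCC lines. The interaction was -1.02 (limma adjusted p = 0.113), which did not pass the threshold.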

How the results depend on the processing

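Over the alternatives run, the number of members lower in ICC lines was 6 to 8 of 10. Igfbp3 ranged from -3.21 to -2.58 and Igf1 from -1.40 to -1.15. Both were chosen for being lower in ICC and did not overlap between the types. Leaving out lines could not change their sign, so nothing is read from it. The number of partner genes called between types was 0 without any single line and in all other settings except sex in the model (2) and sex with the missing direction (1, chosen after seeing the data). The 1 member called by sex label, Igf2r, gave 0 with the missing direction and 0 with the random block, and 0 to 2 members were called when single lines were left out. For the interaction 1 member was called with the missing direction and 0 to 1 without single lines. Small differences changed sign without single lines: by sex label Igf2 ranged from -0.007 to 0.167, Igfbp7 from -0.028 to 0.26 and Igfbp2 from -0.113 to 0.091; for the interaction Igf1 ranged from -0.37 to 0.16 and Igfbp4 from -0.205 to 1.29 (0.545 with all lines). The cause of these changes was not tested. The genes called over the whole array numbered 58 between types and 103 among genes above the median only, 12 with the missing direction, 6 with the random block, 119 with sex and the missing direction, 428 with sex in the model and 2 to 109 without single lines; by sex label they numbered 653, 280 with the missing direction, 334 with the random block and 146 to 917 without single lines. For the interaction they numbered 0, 255 with the missing direction and 0 to 238 without single lines. Igf2 and Igfbp5 lay below the median gene on average over the 8 lines, where signal over background is unknown. The same limit holds for Igf1 in the ICC lines (5.12 to 5.58), which lay below the median gene (5.66) there. Where 1 line of a type and sex was left out, the lone line was assumed to vary like the others.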
